A study of Homo sapiens with 6 samples.

Results

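Transcripts of 42 genes for microtubule-associated and microtubule-severing proteins were examined in confluent hTERT RPE1 cells whose microtubules had been challenged with combretastatin A4 (CA4). The genes were chosen by symbol from the textbook classes of proteins that coat the microtubule lattice, track its plus end, cap its minus end, hold back free tubulin or cut the polymer, and all 42 matched 1 Ensembl ID each among the 38900 in the deposited table. The line, hTERT RPE1, is a human cell line of retinal pigment epithelium immortalised with telomerase. Every culture was held at 100% confluency for 5 days, which the labels give as a means to quiescence, and was then given fresh medium for 6 hours with either 100 nM CA4 (3 libraries) or 0.1% DMSO, the solvent (3 libraries). The labels do not say that same-group libraries came from separate cultures, so p-values measure only the spread between these libraries, which may be technical. In bulk RNA, fewer cells that express a gene and less RNA per cell cannot be told apart.

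Microtubules are hollow polymers of alpha and beta tubulin that grow and shrink mainly at the plus end. Lattice-binding proteins such as MAP4 stabilise the polymer, end-binding proteins (EB1 to EB3, encoded by MAPRE1 to MAPRE3) recruit other factors to growing ends, CAMSAP proteins hold minus ends, stathmins bind free tubulin dimers, and katanin, spastin and fidgetin cut the lattice with energy from ATP. CA4 occupies the colchicine site of tubulin, and polymer is lost. A rise in free tubulin is known to trigger decay of tubulin mRNA while it is being translated, through a factor that reads the first few residues of nascent tubulin. The comparison here asks whether the transcripts of the proteins that act on microtubules changed as well.

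Values for single libraries are listed below in the order of replicates 1, 2 and 3. The libraries held between 19524936 and 22538004 reads. The labelled cell type was checked against 13 markers of retinal pigment epithelium, of which 8 passed the filter on low values. KRT8 and KRT18 were abundant and OTX2 and MITF were present, but RPE65 lay between 13.5 and 40.8 normalized counts, RLBP1, TYR, TYRP1 and LRAT were all below 6 and TTR was listed at 0. Of the 8, 4 had a fold change above 0 and 4 below, and 1 passed the test: OTX2 fell by 1.11 on the log2 scale in CA4 (limma adjusted p = 0.0158). KRT18 was higher in every CA4 library than in any DMSO library (log2 fold change 0.46) but did not pass. The 20 proliferation genes listed were all expressed above the filter, MKI67 between 1191 and 4849 normalized counts, and quiescence was not tested otherwise. None of the 20 passed the test, with sums of 24836, 13327 and 12101 normalized counts in DMSO and 18350, 12094 and 7630 in CA4.

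None of the microtubule-associated and severing protein genes passed the test for a change with treatment as the only term. In limma's moderated test 0 of the 39 that were abundant enough to be tested reached an adjusted p of 0.05, where 4.94% of the 13928 genes tested did so (2.97% higher and 1.97% lower in CA4). At the background rate about that share of any list would pass, so a count of 0 does not set these genes apart from the rest. At an unadjusted p under 0.05 there were 9 of the 39, 6 lower and 3 higher in CA4, against 23.0% of all tested genes. The ranges of the CA4 and DMSO groups did not overlap in 11 of the 39 (7 with CA4 lower, 4 with CA4 higher), against 27.7% of all tested genes, 13.4% lower and 14.3% higher. Each of these shares is near its background. edgeR on the recovered reads called 0 of the 39 where it called 4.62% of all genes, and 10 of the 39 at an unadjusted p under 0.05, against 22.7% of all genes. DESeq2 called 4, all lower (MAPRE2, CKAP5, EML4 and CAMSAP3), where it called 11.6% of all genes, 5.07% lower. With the replicate number added to the limma fit as a block, 9 of the 39 were called, against 17.2% of all genes. Of these, 4 were higher and 5 lower in CA4, against 9.05% and 8.16% of all genes.

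The intervals show how large a difference the data still allow. The 95% interval of the fold change lay within 2-fold in either direction for 31 of the 39 genes, against 71.7% of all tested genes. For 18 it lay within 1.5-fold, against 45.0% of all genes, and these included the abundant MAP4, MAP7D1, MAPRE1, CLIP1, CLIP2, CLASP1, CAMSAP1 and CAMSAP2. The narrowest interval was that of CLIP2, from -0.22 to 0.15 on the log2 scale. The 8 genes whose interval reached beyond 2-fold were MAP6, MAP7, EML2, MTUS1, CAMSAP3, STMN3, FIGN and FIGNL1, so that changes of that size were not bounded for them at this depth and spread. For scale, TUBB3, a beta tubulin gene, went from 7766, 6376 and 6324 normalized counts in DMSO to 917, 1105 and 1051 in CA4, with a 95% interval from -3.00 to -2.47 (log2 fold change -2.73, SE 0.11, limma adjusted p = 2.87e-04). Apart from CAMSAP3, whose libraries disagreed widely, the lowest bound of any of the 39 genes was -1.39, for FIGNL1. The sum over all 42 genes ran from 66671 to 70810 normalized counts in DMSO and from 68498 to 70780 in CA4, so that the groups overlapped. This depends on the scaling: as a share of each library's total the sum was 0.347%, 0.326% and 0.335% in DMSO and 0.325%, 0.320% and 0.305% in CA4, without overlap. Of the 39, 15 had a fold change above 0 and 24 below, against 48.9% and 51.1% of all tested genes, and the median log2 fold change was -0.15, where that of all tested genes was -0.00818. The median of the 39 was -0.0409 without CA4 replicate 1, -0.0728 without DMSO replicate 2 and -0.247 with every library scaled to the same total, which moved the median of all tested genes by -0.101. The estimate was beyond 1.5-fold for 2 of them, FIGN and CAMSAP3, against 15.8% of all genes (for FIGN this rests on CA4 replicate 3, without which the log2 fold change was -0.37), and beyond 2-fold for CAMSAP3 alone, against 5.72%.

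**Figure D1:**
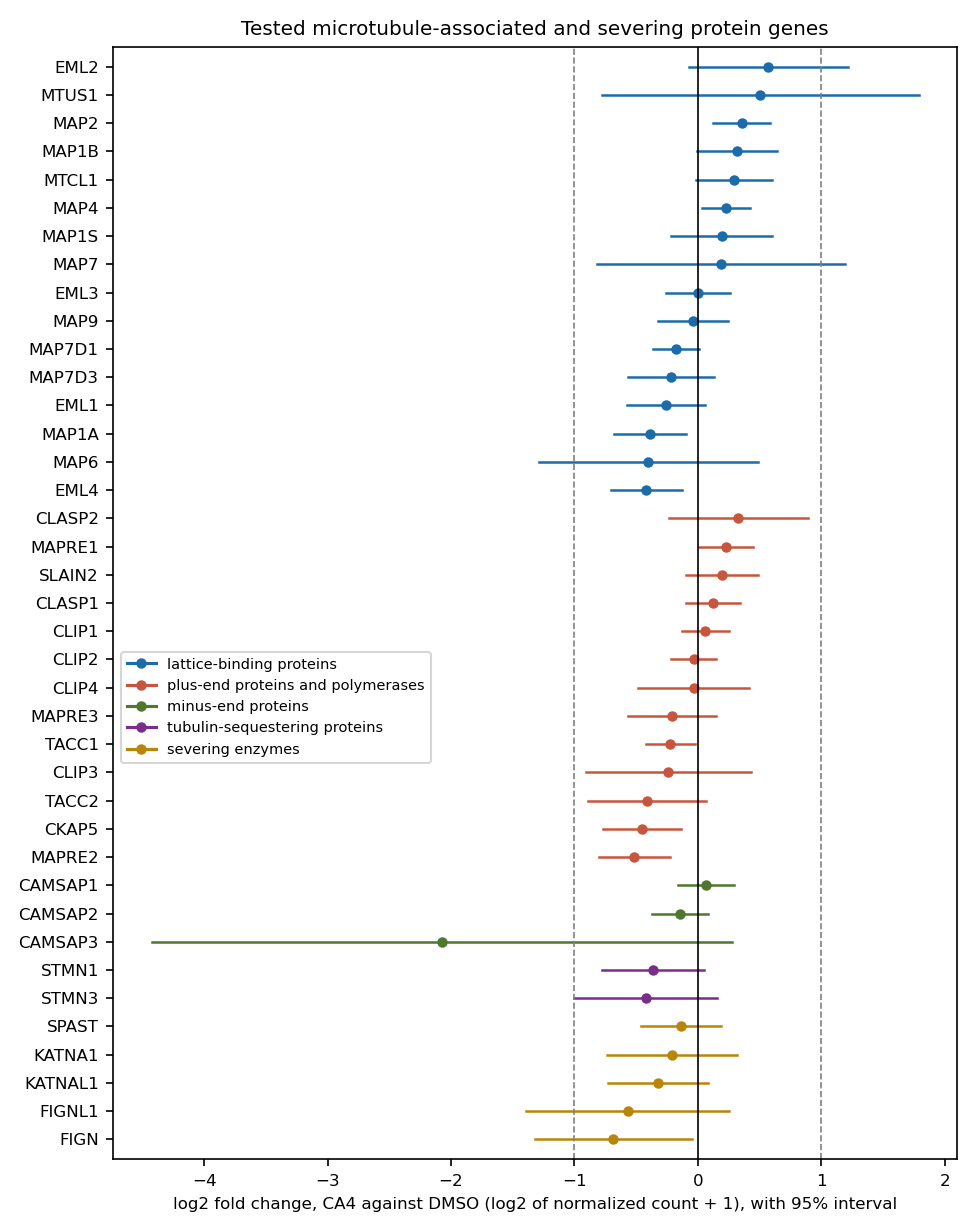
Log2 fold change of each of the 39 tested genes, CA4 against DMSO, on the log2(normalized count + 1) scale, with points for the estimate and lines for the 95% interval from limma (3 libraries in each group). Colours mark the role of the protein and dashed lines mark 2-fold. The intervals of 31 genes lie inside the dashed lines, and CAMSAP3 has by far the widest.

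The start of the coding sequence is shown because that is the stretch through which tubulin mRNA is singled out when free tubulin rises. The sequences are the first 24 coding bases of 1 GENCODE 29 transcript per gene (GRCh38), 5′ to 3′ on the coding strand, with the first 12 bases, which are 4 codons, in capitals. The first group are tubulins and the second the microtubule-associated and severing protein genes with the smallest p-values, TACC1 aside.
TUBA1A: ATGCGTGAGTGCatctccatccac
TUBB: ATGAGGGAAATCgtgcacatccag
TUBB3: ATGAGGGAGATCgtgcacatccag
TUBB2A: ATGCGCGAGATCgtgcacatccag
MAPRE2: ATGCCTGGGCCGacccaaaccctg
MAP2: ATGGCAGATGAAcggaaagatgaa
EML4: ATGGACGGTTTCgccggcagtctc
CKAP5: ATGGGAGATGACagtgagtggttg
MAP1A: ATGGACGGCGTGgctgagttctcc
MAP4: ATGGCTGACCTCagtcttgcagat
FIGN: ATGATCAGTAGCaccagtgtttat

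Among 10 alpha and beta tubulin genes the first 12 coding bases took 6 forms, ATGAGGGAAATC, ATGAGGGAGATC, ATGCGCGAGATC, ATGCGTGAATGC, ATGCGTGAGATC and ATGCGTGAGTGC. These were searched as exact matches at the first coding base, so other codons for the same residues were not covered. Of 19574 protein-coding genes, 12 began with one of them (0.0613%), and each of these is a tubulin gene. None of the 42 genes for microtubule-associated and severing proteins did. Over the 9 bases after the ATG, the fewest mismatches between any of them and any tubulin form were 4. A mismatch says only that these letters are not at the start of the transcript chosen.

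Among the lattice-binding proteins 16 of 18 genes were tested, 9 with a fold change above 0 and 7 below, with a median log2 fold change of 0.096. MAP4, the main structural microtubule-associated protein outside neurons (chromosome 3, 47850690 to 48089272, GENCODE 29 on GRCh38), had 14892, 12882 and 13340 normalized counts in DMSO and 16695, 15359 and 16068 in CA4. All CA4 libraries were above all DMSO libraries, by a log2 fold change of 0.23 (SE 0.08, 95% interval 0.04 to 0.42), and the limma adjusted p was 0.156. MAP2, best known for spacing microtubules in dendrites (chromosome 2, 209424058 to 209734118), had 399, 388 and 413 normalized counts in DMSO and 519, 497 and 518 in CA4. Libraries of 1 group lay close together, with SDs of 12.6 and 12.5 around means of 400 and 511 (n = 3 each). The groups differed by 0.35 on the log2 scale (SE 0.10, 95% interval 0.13 to 0.58), and the limma adjusted p of 0.084 was above the threshold. The neuronal relative MAPT, which encodes tau, was listed at 0 in all 6 libraries, and whether that is an absence of reads or an effect of the counting cannot be told from the table. Were it an absence of reads, it would allow up to 3 reads, or 2.80 to 3.37 normalized counts, per library. Neuronal markers were low but not all at the floor, with the 9 of them summing to between 61.8 and 123 normalized counts in DMSO and between 97.6 and 143 in CA4. Of the 9, 3 passed the filter on low values, and SNAP25 had 30 to 104 reads in every library. Of the 3 tested, SNAP25 and SYN1 lay above 0 like MAP2, with log2 fold changes of 0.60 and 1.09. GAP43 lay below 0, with 23.2, 37.4 and 35.1 normalized counts in DMSO and 6.77, 15.7 and 10.03 in CA4 (log2 fold change -1.52, limma adjusted p = 0.0865). None of the 3 passed the test, ELAVL4 and DCX were at 0 in most libraries, and the part of such cells in the values of MAP2 was not tested.

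The MAP1 family encodes long proteins that are cleaved into a heavy and a light chain. MAP1A (chromosome 15, 43510958 to 43531620) had 1916, 2258 and 2065 normalized counts in DMSO and 1458, 1884 and 1444 in CA4. Every CA4 library was below every DMSO library (log2 fold change -0.39, SE 0.13, limma adjusted p = 0.119). MAP1B lay the other way, with 7418, 5221 and 7084 in DMSO and 8756, 7659 and 7863 in CA4 (log2 fold change 0.31, SE 0.14, limma adjusted p = 0.231). Without DMSO replicate 2 the log2 fold change of MAP1B was 0.16. Per kb of exon, MAP1A made up 22.1% ± 4.18 of the 3 genes of the family in DMSO, against 15.0% ± 1.92 in CA4 (SD, n = 3 in both). The CA4 shares, between 13.1% and 17.0%, were all below the DMSO shares, between 18.9% and 26.8%. This shift within the family was picked out after the values were seen and was not tested. The third gene, MAP1S, was spread too widely to place, from 806 to 1318 normalized counts in CA4 and from 839 to 984 in DMSO.

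The EML proteins bind microtubules and carry WD repeats. EML4 (chromosome 2, 42169350 to 42332548), known from its fusion with ALK in lung cancer, had 927, 945 and 1170 normalized counts in DMSO and 790, 793 and 687 in CA4. The groups did not overlap, and the log2 fold change was -0.42 (SE 0.12, 95% interval -0.70 to -0.13, limma adjusted p = 0.0958). EML3, the highest of the family per kb of exon, had means of 1328 ± 97.5 and 1335 ± 150 normalized counts (SD, n = 3 each), with a 95% interval from -0.26 to 0.26. EML1 had a log2 fold change of -0.26 (95% interval -0.58 to 0.06) and EML2 one of 0.57 (95% interval -0.07 to 1.21). In GENCODE 29, 14.3% of the exon bases of EML2 also lie in EML2-AS1 on the opposite strand. Use of strand in the counting is not given in the sources used here, so reads of the pair cannot be told apart.

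MAP7D1, a relative of the kinesin-1 recruiting protein MAP7, had 7924, 7792 and 8464 normalized counts in DMSO and 6898, 7662 and 6832 in CA4. The groups just failed to overlap (log2 fold change -0.18, SE 0.08, limma adjusted p = 0.233). MTCL1, which crosslinks microtubules, had 1720, 2203 and 1647 in DMSO and 2052, 2482 and 2249 in CA4, and its groups overlapped (log2 fold change 0.29, SE 0.13, limma adjusted p = 0.237). MAP9 and MAP7D3 had log2 fold changes of -0.04 and -0.22. MAP6, MAP7 and MTUS1 were low, with means of 142, 24.4 and 28.5 normalized counts in DMSO, and their intervals spanned at least 2-fold on 1 side. DCLK1, between 2.80 and 10.6 normalized counts, was below the filter and was not tested.

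**Figure D2:**
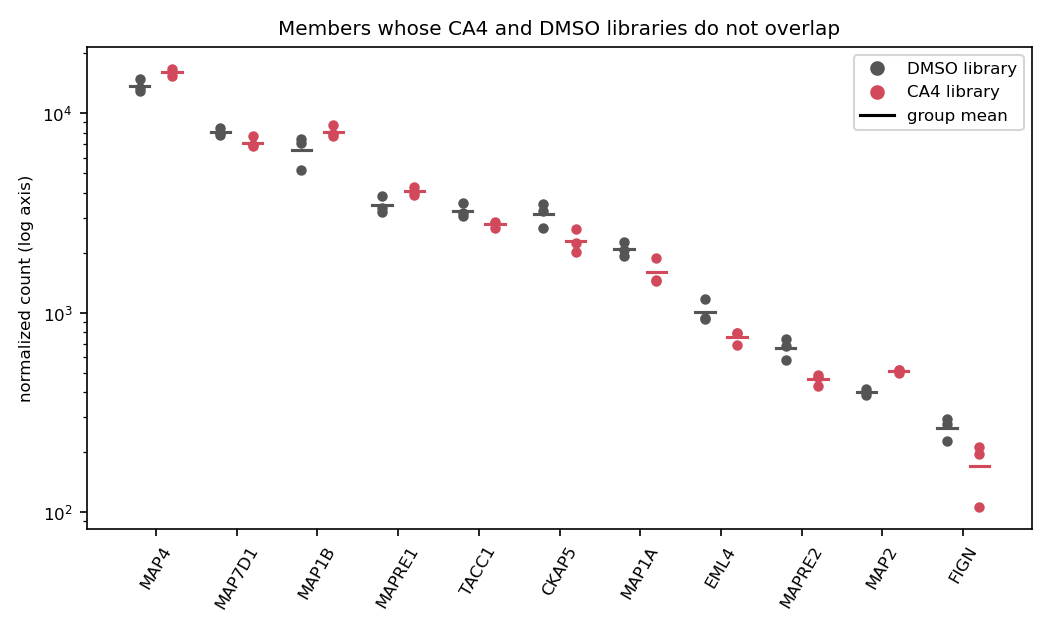
Normalized count of each library (points, log axis) and the group mean (bars) for the 11 tested genes whose CA4 and DMSO libraries do not overlap. MAP4, MAP1B, MAPRE1 and MAP2 lie higher in CA4 and the other 7 lower; 0 of the 11 passed an adjusted p of 0.05.

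Of the plus-end genes 13 of 14 were tested, 5 above 0 and 8 below, with a median log2 fold change of -0.036. MAPRE2, which encodes the end-binding protein EB2 (chromosome 18, 34976928 to 35143470), had the smallest p of all 39 genes. It had 582, 741 and 679 normalized counts in DMSO and 477, 488 and 430 in CA4. No CA4 library reached the lowest DMSO library, and the log2 fold change was -0.52 (SE 0.12, 95% interval -0.80 to -0.23), with a limma adjusted p of 0.0572. This value sat on the edge of the threshold. It was 0.0492 with genes under a mean of 50 left out, 0.0376 with every library scaled to the same total and 0.0339 without DMSO replicate 1, and over all alternatives it ran from 0.00899 to 0.180.

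Of the other end-binding genes, MAPRE1 lay above 0 and MAPRE3 below. MAPRE1, which encodes EB1, the member that most directly marks growing ends, had 3865, 3203 and 3343 normalized counts in DMSO and 4260, 3891 and 4019 in CA4 (log2 fold change 0.23, SE 0.09, limma adjusted p = 0.195). All 3 CA4 libraries were above all 3 DMSO libraries. MAPRE3, for EB3, had 459, 593 and 616 in DMSO and 418, 533 and 484 in CA4, with overlapping groups (log2 fold change -0.21, 95% interval -0.57 to 0.14). As a share per kb of exon, MAPRE2 made up 5.56%, 7.97% and 7.07% of the family in DMSO and 4.25%, 4.62% and 4.01% in CA4. MAPRE1 made up 83.4% ± 3.14 (SD, n = 3) in DMSO against 88.2% ± 1.32 (SD, n = 3) in CA4, and there the groups overlapped by 1 library, since DMSO replicate 1 stood at 87.0%. As for MAP1A, this was seen in the values first and was not tested.

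**Figure D3:**
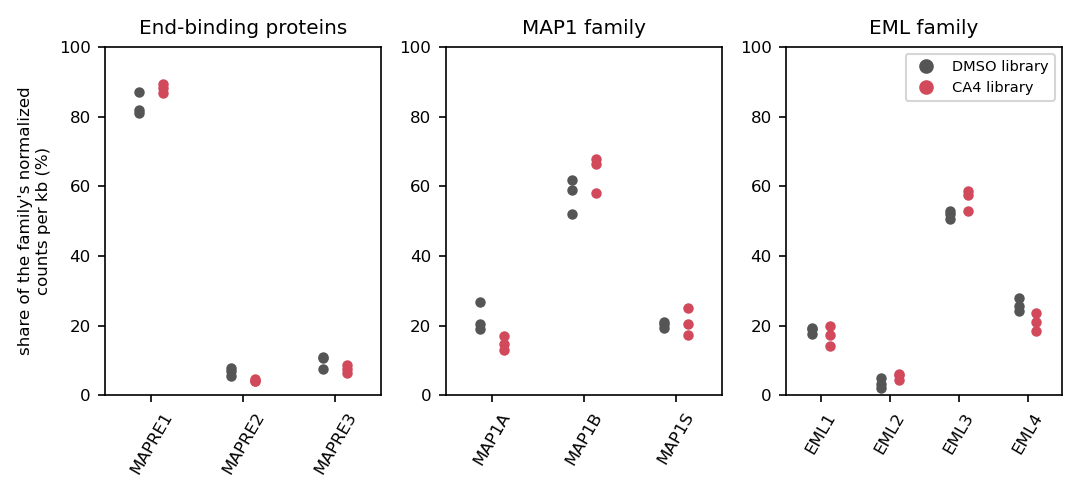
Share of each gene in its family's normalized counts per kb of exon (%), for each DMSO and CA4 library (points), in the end-binding, MAP1 and EML families. The CA4 shares of MAPRE2, MAP1A and EML4 lie below all their DMSO shares; MAPRE1, MAP1B and EML3 hold the largest share of their families in all 6 libraries.

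CKAP5, or chTOG, adds tubulin to growing plus ends (chromosome 11, 46743048 to 46846308). It had 3527, 2665 and 3232 normalized counts in DMSO and 2619, 2243 and 2024 in CA4. The highest CA4 library was just below the lowest DMSO library, and the log2 fold change was -0.45 (SE 0.14, 95% interval -0.77 to -0.14, limma adjusted p = 0.0999). TACC1 and TACC2 belong to the family that partners CKAP5. TACC1 had 3147, 3051 and 3538 in DMSO and 2828, 2842 and 2656 in CA4, without overlap (log2 fold change -0.22, SE 0.08, limma adjusted p = 0.172). TACC2 had 689, 515 and 431 in DMSO and 495, 384 and 343 in CA4, with overlap (log2 fold change -0.41, SE 0.21, limma adjusted p = 0.286). Without DMSO replicate 1 the log2 fold change of TACC2 was -0.23.

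The CLIP and CLASP genes all had overlapping groups. CLIP1, for CLIP-170, which links growing ends to membranes and dynein, had means of 2804 ± 94.9 and 2928 ± 207 normalized counts in the DMSO and CA4 libraries (SD, n = 3 in both), with a 95% interval from -0.13 to 0.25. CLIP2 and CLIP4 had log2 fold changes of -0.03 and -0.04. CLIP3 varied widely within groups, with 1094, 2075 and 1642 in DMSO and 904, 1639 and 1530 in CA4, so that replicate 1 was lowest in both. CLASP1, which rescues shrinking microtubules, had a 95% interval from -0.10 to 0.34. CLASP2 had 721, 526 and 556 in DMSO and 907, 509 and 903 in CA4, where CA4 replicate 2 was the lowest of all 6 libraries and the other CA4 libraries were the highest. SLAIN2, a plus-end partner of CKAP5, had a log2 fold change of 0.19 (95% interval -0.10 to 0.48). SLAIN1 had at most 9.50 normalized counts in any library and was not tested.

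Of the minus-end genes, CAMSAP1 and CAMSAP2 had overlapping groups. CAMSAP1 had means of 1474 ± 129 and 1540 ± 87.9 and CAMSAP2 of 1781 ± 149 and 1609 ± 102 normalized counts in DMSO and CA4 (SD, n = 3 each). Both 95% intervals lay within 1.5-fold. Per kb of exon, CAMSAP1 made up 41.2%, 40.5% and 43.2% of the CAMSAP genes in DMSO and 46.1%, 46.2% and 46.1% in CA4. CAMSAP2 went the other way, with 57.0%, 54.0% and 56.6% in DMSO and 53.8%, 53.3% and 53.6% in CA4. Neither share overlapped between the groups, and this was seen in the values first and was not tested. CAMSAP3, the form typical of polarised epithelia, was low and uneven. It had 36.7, 102 and 4.75 normalized counts in DMSO and 2.90, 8.98 and 6.69 in CA4. DMSO replicate 3 lay within the CA4 range, and the log2 fold change of -2.07 had a 95% interval from -4.42 to 0.28 (limma adjusted p = 0.273). Without DMSO replicate 2 the fold change was -1.14 and without DMSO replicate 3 it was -3.22, with limma adjusted p-values of 0.607 and 0.0914.

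The stathmin genes, for proteins that sequester tubulin dimers, were both below 0. STMN1 had 2903, 2509 and 2028 normalized counts in DMSO and 2221, 2060 and 1522 in CA4 (log2 fold change -0.36, SE 0.18, limma adjusted p = 0.276). The groups overlapped, because CA4 replicates 1 and 2 lay above DMSO replicate 3. At each replicate number the CA4 library was below the DMSO library. With the replicate number as a block the limma adjusted p was 0.0144, where 17.2% of all genes were called. The log2 fold change was -0.20 without CA4 replicate 3 and -0.24 without DMSO replicate 1. STMN1 is known to be high in dividing cells, and the sum of the 20 proliferation genes had the same order of libraries within each group: replicate 1 highest and replicate 3 lowest. Single genes of the list did not all keep that order, as DMSO replicate 2 was the lowest for MKI67, AURKB, MCM2 and MCM3. The 20 proliferation genes had a median log2 fold change of -0.40 in CA4, with all 20 below 0. Their part in the values of STMN1 was not tested. STMN3, a form better known from neurons, had 85.0, 102 and 76.0 in DMSO and 59.0, 85.3 and 53.5 in CA4 (log2 fold change -0.42, SE 0.25, limma adjusted p = 0.359).

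All 5 severing enzymes were tested and all had a fold change below 0, with a median log2 fold change of -0.32, but 0 passed the test and only FIGN had groups that did not overlap. FIGN, for fidgetin (chromosome 2, 163593396 to 163736012), had 227, 294 and 276 normalized counts in DMSO and 195, 213 and 106 in CA4 (log2 fold change -0.69, SE 0.27, 95% interval -1.32 to -0.05, limma adjusted p = 0.189). CA4 replicate 3 stood well below the other CA4 libraries. FIGNL1, a fidgetin-like ATPase that is also needed in DNA repair, had 189, 158 and 149 in DMSO and 185, 65.1 and 113 in CA4 (log2 fold change -0.57, SE 0.35, limma adjusted p = 0.387). KATNAL1, a katanin catalytic subunit, had 977, 1082 and 1209 in DMSO and 732, 1128 and 790 in CA4, where CA4 replicate 2 lay among the DMSO libraries. KATNA1, the founding catalytic subunit of katanin, and SPAST, for spastin, had log2 fold changes of -0.21 and -0.14. Summed over the 5 genes, the libraries ran from 2130.5 to 2290 normalized counts in DMSO and from 1623 to 2076 in CA4.

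**Figure D4:**
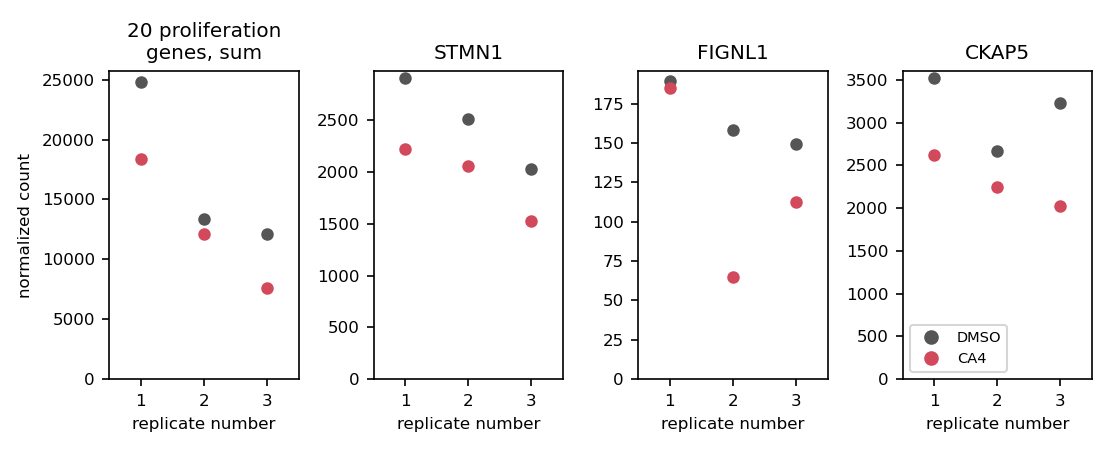
Normalized count by replicate number, for the sum of 20 proliferation genes and for STMN1, FIGNL1 and CKAP5 (1 point for each library, linear axes from 0). In both groups the proliferation sum and STMN1 are highest in replicate 1 and lowest in replicate 3, while FIGNL1 is lowest in CA4 replicate 2 and CKAP5 is lowest in DMSO replicate 2 among the DMSO libraries.

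Levels differed far more between the genes than between the treatments. Per kb of exon (union of all GENCODE 29 exons), MAP7D1 had a mean of 1529 normalized counts in DMSO and 1353 in CA4, MAPRE1 had 1323 and 1547, MAP4 had 917 and 1073 and MAP1B had 521 and 641. MAP7D1 stood above MAPRE1 in every DMSO library and below it in every CA4 library, so their order differed between the groups. This was not tested. CLIP3, STMN1 and CKAP5 followed, at 425, 396 and 368 in DMSO. In DMSO the lowest of the tested genes were MTUS1 and MAP7, at 2.37 and 4.47 per kb. In CA4 the lowest was CAMSAP3, at 1.28. Among the severing enzymes KATNA1 and KATNAL1 were highest, at 134 each in DMSO, above SPAST at 42.6. The order near the top depends on which exons are counted. By the length of 1 transcript per gene, chosen after the data were seen, MAP4 was first at 2892 per kb over all libraries, ahead of MAP7D1 at 2285, STMN1 at 1941 and MAPRE1 at 1435.

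**Figure D5:**
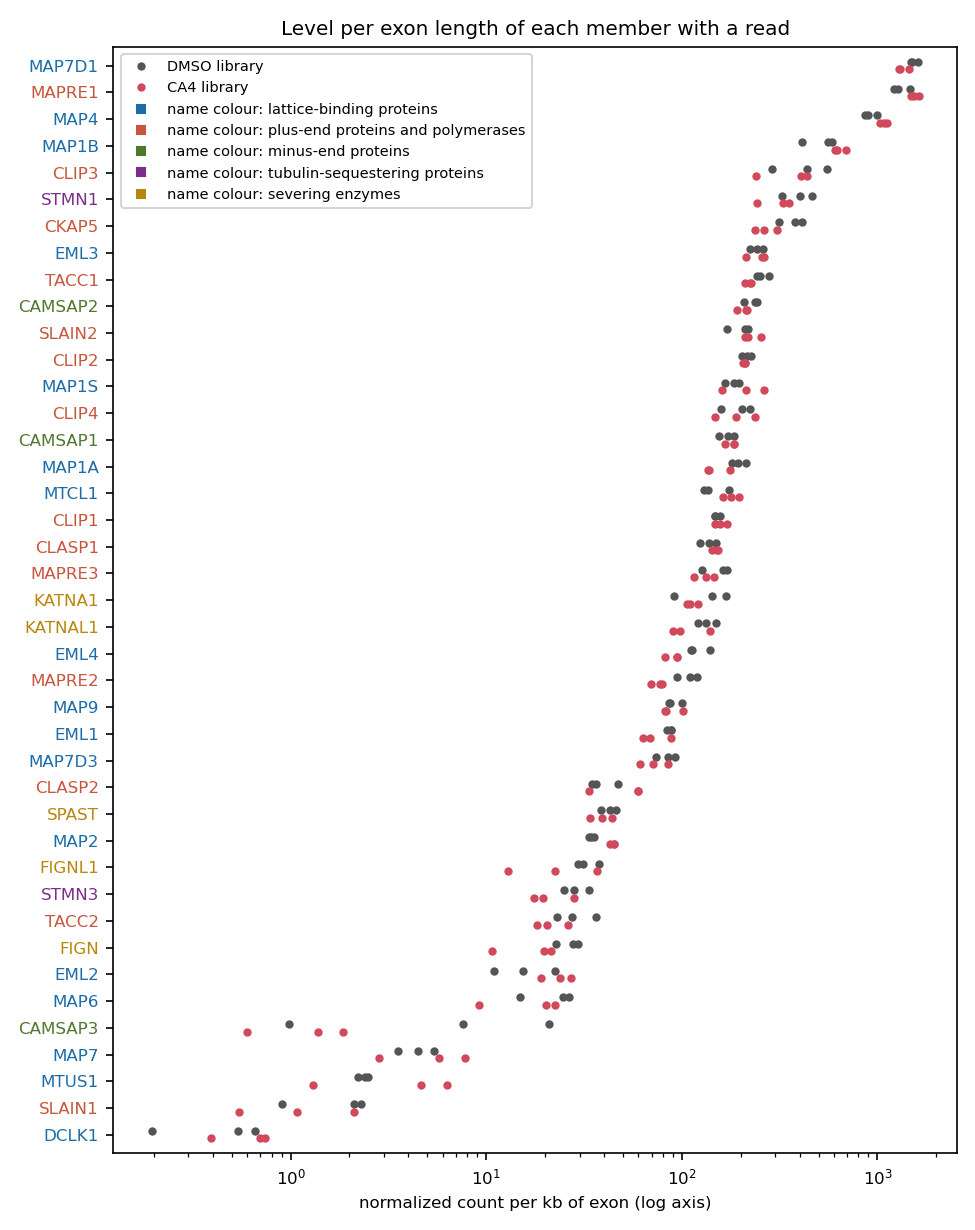
Normalized count per kb of exon (log axis) of each library for the 41 genes with a read, in order of their mean, with names coloured by role. MAPT, listed at 0 throughout, is not drawn. DMSO and CA4 points lie close together for most genes, while the genes span from under 1 to over 1000.

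Of 51 other microtubule-binding genes outside this set 40 were tested and 3 passed, all lower in CA4. Over all tested genes 4.94% passed in either direction and 1.97% passed lower in CA4, and the difference of this count from those shares and from the 0 of 39 was not tested. The median log2 fold change of the 40 was -0.20. MID1, a microtubule-bound ubiquitin ligase, fell from 946, 970 and 1026 normalized counts in DMSO to 480, 582 and 558 in CA4 (log2 fold change -0.86, SE 0.11, limma adjusted p = 0.0108). NAV1, a plus-end protein of the neuron navigator family, fell from 7711, 8091 and 8382 to 5076, 5823 and 4530 (log2 fold change -0.66, SE 0.10, limma adjusted p = 0.0179). GAS2L1, which links actin to microtubules, fell from 962, 1049 and 1267 to 646, 813 and 617 (log2 fold change -0.66, SE 0.15), with a limma adjusted p of 0.0494 that was just inside the threshold. DCLK2, a doublecortin-like kinase and a relative of DCLK1, had 300, 326 and 537 in DMSO and 584, 826 and 1203 in CA4 (log2 fold change 1.15, SE 0.30), the largest fold change of the 40, but its limma adjusted p was 0.0745. CYLD and NAV2 also had higher values in CA4 without overlap, with log2 fold changes of 0.40 and 0.80 and limma adjusted p-values of 0.0759 and 0.081. The count of 3 followed the calls over all genes when a library was left out. It was 0 without DMSO replicate 2 and 0 without DMSO replicate 3, where 0.718% and 0.582% of all genes were called, and 5 without DMSO replicate 1, where 7.14% were. It was 1 without CA4 replicate 1 and 1 without CA4 replicate 3, where 1.12% and 1.08% were.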

How the data were processed

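PolyA RNA of 6 libraries was measured. The deposited values are a signal: per the file headers there is 1 column per library, and the authors had divided each gene's reads by 1 scaling factor per library (normalized counts). In each column 100% of values were whole multiples of 1 step within 0.01, which recovered whole reads. Per the submitters' processing notes, Trim Galore 0.6.6, FastQC 0.12.1, Salmon 1.8.0, STAR 2.7.9a, DESeq2 1.44.0 and GRCh38 were used; their roles, the annotation and use of strand are not given in the sources used here, and reads may be rounded estimates.

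Genes with a mean of at least 10 (13928) were fitted on log2(normalized count + 1) with limma 3.58.1 (R 4.3.3; variance trend, treatment as only term), with Benjamini-Hochberg adjustment over all of them and a threshold of 0.05. Fold changes are on that scale, which understates low genes. Intervals are limma's, unadjusted. edgeR 4.0.16 (TMM) and DESeq2 1.42.0 were run on recovered reads. In simulated data with 200 of 13928 genes changed 2-fold, 57% of them were called by limma, and 10.2% of calls fell on unchanged genes. The same shares were 54.5% and 9.92% for edgeR, 71% and 29% for DESeq2 and 49% and 14% for limma with a replicate block. The simulation held no replicate effect, so it cannot judge the block for these data. Changes smaller than 2-fold were not simulated. Library depth limits low genes, and limits of 3 reads cover counting error only.

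The genes and lists were chosen with earlier results of these data known. Genes past the threshold, the 8 others with the smallest p and a mean of at least 50, and the 6 other microtubule-binding genes with the smallest adjusted p were named by rule; further names were chosen after values were seen. At most 14.3% of the exon bases of any of the 42 genes lie in another gene (GENCODE 29), and under 1% of their 50-base words occur in another gene's transcripts.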

Additional observations from a re-analysis of the deposited data

How the results depend on the processing

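Against 0 genes higher and 0 lower, pseudocounts of 0.1 and 5, no filter, quantile normalization, no variance trend and edgeR also called 0 of the 39 tested members of the set in either direction, but without the variance trend only 0.74% of all genes were called. MAPRE2 was the 1 gene called lower with a minimum mean of 50 (2.77% of all genes lower) or with scaling to the same total (3.76%), 4 genes were called lower in DESeq2, and leaving out 1 library gave 0 to 0 higher and 0 to 1 lower, where 0.582% to 7.14% of all genes were called. Scaling to the same total moved the median of all tested genes by -0.101 and that of the tested members of the set to -0.247 from -0.145; leaving out 1 library gave -0.19 to -0.0409 (-0.0728 without DMSO replicate 2 and -0.0409 without CA4 replicate 1). CAMSAP1, CLIP1 and EML3 changed sign under that scaling, each within 0.065 of 0 as reported, and CLIP1 and EML3 with quantile normalization. On leaving out 1 library CAMSAP1, CLIP2, CLIP3, CLIP4, EML3, MAP7 and MAP9 changed sign at least once, CLIP3 from -0.24 without CA4 replicate 1 and MAP7 from 0.19 without CA4 replicate 2. Of the other microtubule-binding genes 3 were called, 1 without the variance trend, 7 in DESeq2 and 0 to 5 without 1 library; the cause was not tested. GAS2L1 lost its call with a pseudocount of 0.1, no filter, quantile normalization, no variance trend and edgeR, and NAV1 lost its call without the variance trend. On leaving out 1 library the log2 fold change ran from -0.919 to -0.781 for MID1, from -0.748 to -0.567 for NAV1 and from -0.78 to -0.547 for GAS2L1.

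With the replicate number as a block, 4 genes were called higher (MAP2, MAP4, MAPRE1 and MTCL1) and 5 lower (CKAP5, MAP1A, MAPRE2, STMN1 and TACC2), where 17.2% of all genes were, and 12 of the other microtubule-binding genes. Deviations of same-numbered libraries correlated at 0.202, 0.159 and 0.0588, and those of differently numbered libraries between -0.214 and 0.0741. Of the 6 libraries, 5 correlated best with their own number. Because the same-numbered values were not all above 0.1, the main fit left the replicate number out. They do not show that the libraries were unpaired.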
